A study of Arabidopsis thaliana with 8 samples.

Results

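The *SUC* genes (*SUC1* to *SUC9*) encode the sucrose transporters of Arabidopsis, and they were followed in 4 lists of ChIP-seq peaks of the CONSTANS protein. Members were taken by locus, and a peak was assigned to a member when it overlapped the gene body or the 3000 bp upstream of its start in the TAIR10.1 RefSeq annotation by at least 1 bp. This gave 9 of the 27444 annotated protein-coding genes. The family was chosen by its name and by the width, summit position and local background of the *SUC2* peak in the *SUC2::CO:CIT* lists, since the *SUC2* promoter also drove the transgene, so these values are described without a test.

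Whole seedlings were grown in long days (16 h light and 8 h dark), and 5 g (fresh weight) per genotype and replicate were used for ChIP at ZT12, 12 h after dawn. The genotypes were *SUC2::CO:CIT aba1-6*, in which an early step of abscisic acid (ABA) synthesis is impaired, and *SUC2::CO:CIT*, both in the Col-0 background and both carrying the same insertion of a fusion of CONSTANS with the fluorescent protein CITRINE (line #5), so that only 1 transgenic event was sampled. Each genotype had 2 biological replicates, and each replicate had a ChIP library, pulled down through the CITRINE tag with GFP-Trap nanobodies, and an input library that enters here only through the background used in peak calling. No non-transgenic ChIP library was analysed here, and since the peaks record no transcripts, the tissue could not be checked against marker genes.

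SUC proteins move sucrose across membranes together with protons. SUC2 works in the companion cells of the phloem, where it loads sucrose into the sieve tubes for transport to roots, shoot tips and seeds. Its promoter is the standard tool to express a gene in these cells, as was done here with *CO*, which acts there to switch on the florigen gene *FT*. In bulk chromatin from seedlings, binding in a small share of cells and weaker binding in more cells cannot be told apart.

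The sequences around the summits (the highest point of a peak) are printed for 4 members with a shared peak upstream or beyond the end of the gene, to show what the peaks cover, on the strand of each gene. They were read from the TAIR10.1 RefSeq genome. Capitals mark TGTG or CACA, the short word at the core of CO-responsive elements on either strand, and CCAAT or ATTGG, the box bound by the NF-Y proteins with which CONSTANS assembles. The first is 251 bases around the *SUC2* summit of replicate 1 of *SUC2::CO:CIT*, chr1:8033533-8033783 on the minus strand, 627 to 377 bp upstream of the gene start.
SUC2: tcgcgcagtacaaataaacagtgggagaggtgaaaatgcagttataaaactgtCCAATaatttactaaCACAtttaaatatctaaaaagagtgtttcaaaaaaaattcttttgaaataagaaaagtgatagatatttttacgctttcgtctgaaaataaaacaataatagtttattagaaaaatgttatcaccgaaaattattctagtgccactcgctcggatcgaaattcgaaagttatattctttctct
The others are 101 bases each around the strongest summit of the same replicate, at chr1:27058068-27058168 (plus strand) for *SUC5*, chr2:833131-833231 (minus strand) for *SUC3* and chr5:17521521-17521621 (plus strand) for *SUC6*.
SUC5: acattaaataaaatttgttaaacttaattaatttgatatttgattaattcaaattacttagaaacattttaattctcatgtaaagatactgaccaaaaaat
SUC3: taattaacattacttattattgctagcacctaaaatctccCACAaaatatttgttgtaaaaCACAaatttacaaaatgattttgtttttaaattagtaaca
SUC6: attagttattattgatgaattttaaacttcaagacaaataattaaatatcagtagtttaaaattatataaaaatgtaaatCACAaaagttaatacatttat
The *SUC2* stretch held 1 TGTG or CACA word and 1 CCAAT box, and had a GC content of 28.7%. Neither word was found in the *SUC5* stretch. The *SUC3* stretch held 2 CACA words and the *SUC6* stretch held 1. Over all 101-bp windows at summits, the TGTG word on either strand was found in 35.4% and 35.7% of windows in replicates 1 and 2 of *SUC2::CO:CIT*, and CCAAT in 14.0% and 14.1%. A match of letters is a description and does not show a binding site.

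The peak lists differed in depth. A list carries no total of reads, so depth was read from the genome background, the background, in fragments per position, that was most common among the peaks of a library. In replicates 1 and 2, it was shared by 50.6% and 47.7% of peaks in *SUC2::CO:CIT aba1-6*, against 91.5% and 91.3% in *SUC2::CO:CIT*. It was 3.57 and 0.774 fragments in replicates 1 and 2 of *SUC2::CO:CIT aba1-6*, against 11.2 and 10.8 in *SUC2::CO:CIT*. There were 168 and 258 listed peaks in *SUC2::CO:CIT aba1-6*, against 21054 and 22724 in *SUC2::CO:CIT*. The median GC content of the 201 bp around summits was 40.8% and 40.3% in *SUC2::CO:CIT aba1-6*, against 21.9% and 22.4% in *SUC2::CO:CIT*, so peaks of the genotypes lay in sequence of different composition. With 2 libraries against 2, an exact two-sided permutation test cannot give a p-value below 0.333, and no other test of the genotypes was run.

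No *SUC* gene had a peak in either replicate of *SUC2::CO:CIT aba1-6*, whereas 7 of 9 had a peak in replicate 1 and 9 of 9 in replicate 2 of *SUC2::CO:CIT*. Among all protein-coding genes, 0.765% and 1.24% had a peak by the same rule in replicates 1 and 2 of *SUC2::CO:CIT aba1-6*, and 0.0692% in both. In *SUC2::CO:CIT* the shares were 55.4% and 58.5%, and 49.7% in both replicates. The 7 members called in both replicates of *SUC2::CO:CIT* were *SUC2*, *SUC3* and *SUC5* to *SUC9*, while *SUC1* and *SUC4* had peaks only in replicate 2. A count of 7 of 9 lies above the share of all genes, but with 9 genes that were chosen with these peaks known it is no sign of a preference for the family. The windows of the members had a median length of 5406 bp, against 5078 bp for all protein-coding genes. A *SUC* gene had a median of 1 peak in replicate 1 and 2 peaks in replicate 2, against 1 and 1 peaks over all genes.

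**Figure D1:**
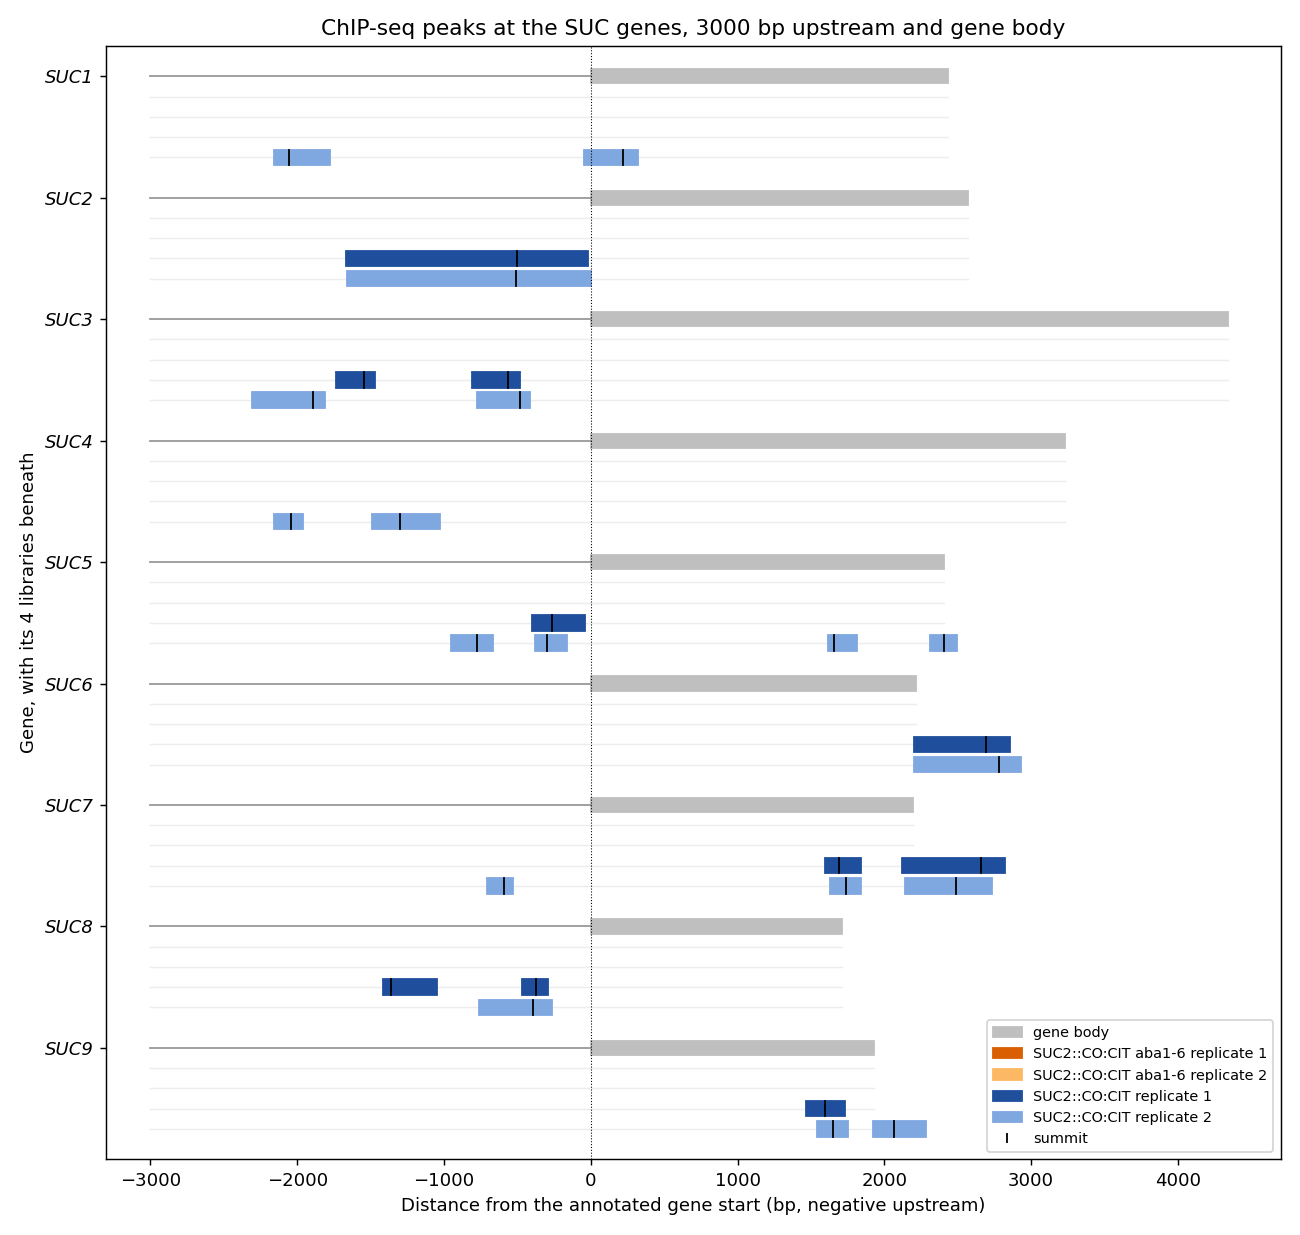
Peaks at the 9 *SUC* genes by distance from the annotated gene start (bp, negative values upstream), with lanes under each gene for replicates 1 and 2 of *SUC2::CO:CIT aba1-6* and then of *SUC2::CO:CIT*. Coloured bars are peaks, black ticks are summits and grey boxes are gene bodies. All *SUC2::CO:CIT aba1-6* lanes are empty, and the *SUC2* peak of 1647 and 1667 bp is wider than all other bars.

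*SUC2* had a single wide peak upstream of the gene in each *SUC2::CO:CIT* replicate, with nearly the same borders. *SUC2* (AT1G22710) lies on the minus strand of chromosome 1 of TAIR10.1, from 8030587 to 8033156, and the next annotated gene upstream is 11075 bp away. The peak spanned 8033177 to 8034823 in replicate 1 and 8033153 to 8034819 in replicate 2, a width of 1647 and 1667 bp (1657 ± 14.1 bp, SD, n = 2). The borders differed by 24 bp on the side of the gene and by 4 bp on the far side, and 98.3% of the bases under either peak were under both. On the side of the gene, the peak ended 21 bp upstream of the gene start in replicate 1 and 3 bp inside the gene in replicate 2. The far border lay 1667 and 1663 bp upstream. The peak thus ran from the gene start over 54.9% and 55.4% of the 3000 bp upstream, and left the gene body and the more distant upstream part without a peak. The next peak upstream began 6108 and 6137 bp from the gene start.

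The summits lay 502 and 508 bp upstream of the *SUC2* start in replicates 1 and 2, 505 ± 4.24 bp (SD, n = 2). They were 6 bp apart, at 8033658 and 8033664, and stood at 29.2% and 30.7% of the width counted from the side of the gene. The far border therefore lay farther from the summit than the border on the side of the gene. The shape of the signal between the borders is not given by the lists. Counted from the annotated start codon, at 8032970, the summits were 691 bp upstream on average.

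Both *SUC2* summits had very many fragments, but also a very high background. There were 377 fragments in replicate 1 (95% Poisson interval 339.9 to 417) and 378 in replicate 2 (341 to 418), intervals that cover counting error only. The local background was 111 and 107 fragments, 9.90 and 9.88 times the genome background of each library. These ratios are not independent between the replicates, so no SD is given. At the start of chromosome 2, for example, the ratio was 13.9722 in both replicates. The summit counts differed by 1 fragment between replicates, which is within the counting error. The ratio of the summit to the local background was 3.41 and 3.53 (mean 3.47). No SD is given here either, because its denominator is that same local background. The deposited fold enrichments, which hold a pseudocount of 1, were 3.39 and 3.51. Relative to the genome background, the same summits stood 33.7 and 34.9 times higher (34.3 ± 0.826, SD, n = 2). The deposited −log10 q was 82.0 and 86.4.

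The rank of the *SUC2* peak depended on the measure. It was 6th by fragments at the summit in both replicates, by −log10 p 6th of 21054 and 5th of 22724 peaks, and 9th by local background in both. By fold enrichment it was 7661st and 7163rd, since 36.4% and 31.5% of the peaks of the libraries had a higher value. By width, 71 and 95 peaks were wider, which is 0.337% and 0.418% of each list. The peaks that ranked next above *SUC2* by −log10 p lay in or beside ribosomal RNA genes, at chromosome 3, 14199510 to 14199737, in replicate 1 and at chromosome 2, 3360 to 3595, in replicate 2.

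Width and high background came together only at *SUC2* in the *SUC2::CO:CIT* lists. Of the 71 and 95 wider peaks, none had a local background above 1.12 and 1.08 times the genome background in replicates 1 and 2. Conversely, 12 peaks of each replicate had a background more than 2 times the genome background, and the 11 others were 171 to 420 bp wide in replicate 1 and 170 to 418 bp in replicate 2. All 12 were shared between the replicates, but the background ratios of the replicates are not independent, so this sharing does not replicate the high background. Of these 11, 3 lay in the first 15 kb of chromosome 2 and 5 in a block of ribosomal repeats on chromosome 3. Among peaks with a fold enrichment within 0.1 of that of *SUC2*, 1521 in replicate 1 and 1485 in replicate 2, the median width was 324 and 359 bp, and 1 and 3 were as wide as *SUC2*.

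The *SUC2* peak also differed from these 11 in its sequence, which was compared with the reference genome. Stretches of 50 bases were taken every 25 bp along each peak and looked up in the whole reference, organelles included. None of the 64 and 65 stretches of the *SUC2* peak in replicates 1 and 2 occurred elsewhere in the reference. In the 11 other peaks of high background, 46.4% and 45.0% of stretches did, and each of these peaks held at least 1 such stretch. The peaks at the other *SUC* genes, with 120 and 212 stretches, held none. The reference carries the *SUC2* promoter once, whereas the plants carry it at the endogenous gene and in the transgene. The length of the promoter in the transgene is not given in the sources used here. The borders of the peak could therefore not be compared with it. Fragments from the endogenous promoter and from the transgene cannot be told apart in these lists.

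**Figure D2:**
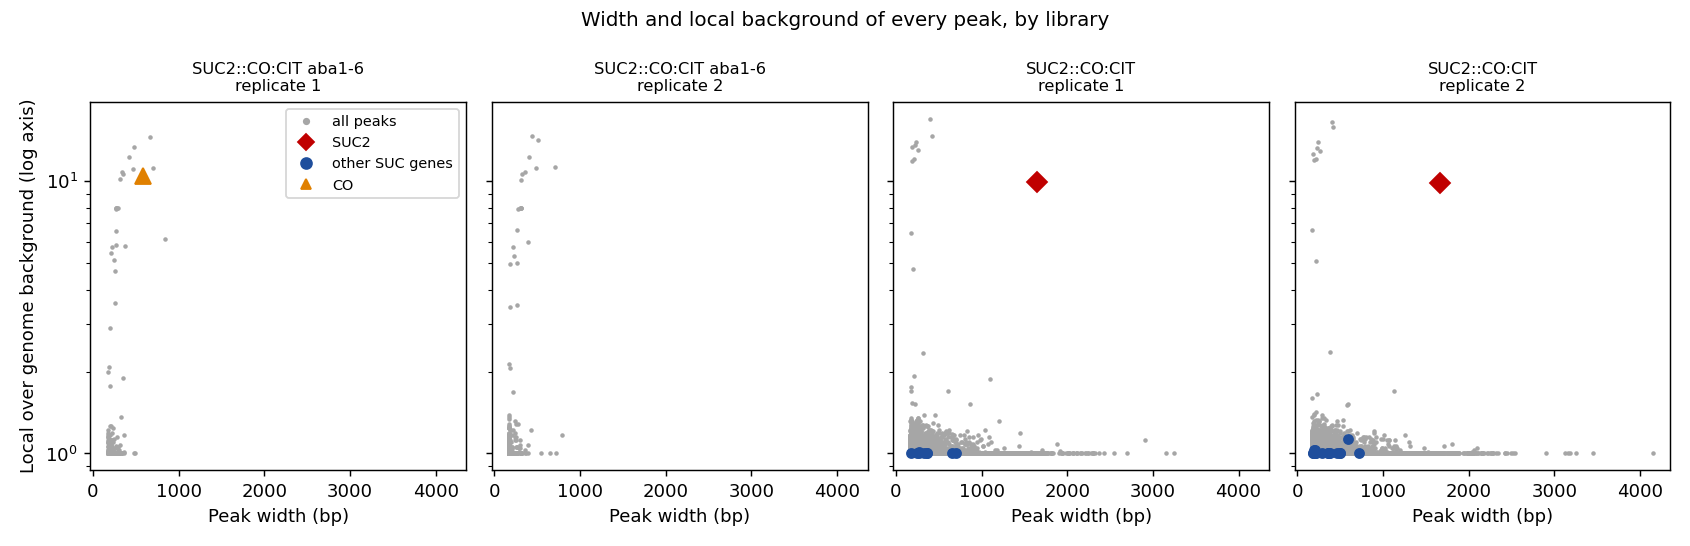
Width (bp) against the local background as a multiple of the genome background (log axis) for every peak, with 1 panel per library, replicates of *SUC2::CO:CIT aba1-6* on the left. Red diamonds are *SUC2*, blue circles the other *SUC* genes, the orange triangle *CO* and grey dots all peaks; in both *SUC2::CO:CIT* panels the *SUC2* peak stands alone at 1647 and 1667 bp and 9.90 and 9.88 times the genome background.

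The peaks at the other members were narrower and lower than that at *SUC2*, and most stood on the genome background. In replicate 1 there were 9 such peaks and in replicate 2 there were 17, with a median width of 327 and 357 bp and ranges of 174 to 697 bp and 178 to 725 bp. The median peak of each library was 304 and 306 bp wide. The *SUC2* peak was 5.04 and 4.67 times as wide as the median (4.85 ± 0.260, SD, n = 2) and 2.36 and 2.30 times as wide as the widest of them. Their summits had 28 to 48 fragments in replicate 1 and 26 to 49 in replicate 2, against 37 and 36 for the median peak of each library, so they were of ordinary height. Of them, 8 of 9 and 14 of 17 had a local background within 1% of the genome background, and the highest ratio was 1.01 and 1.13. The −log10 p was 87.1 and 91.5 at *SUC2* and reached 16.2 and 17.3 at these peaks. By fold enrichment, *SUC2* with 3.39 and 3.51 lay within the range of the other peaks, 2.38 to 4.02 in replicate 1 and 2.22 to 4.23 in replicate 2.

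**Figure D3:**
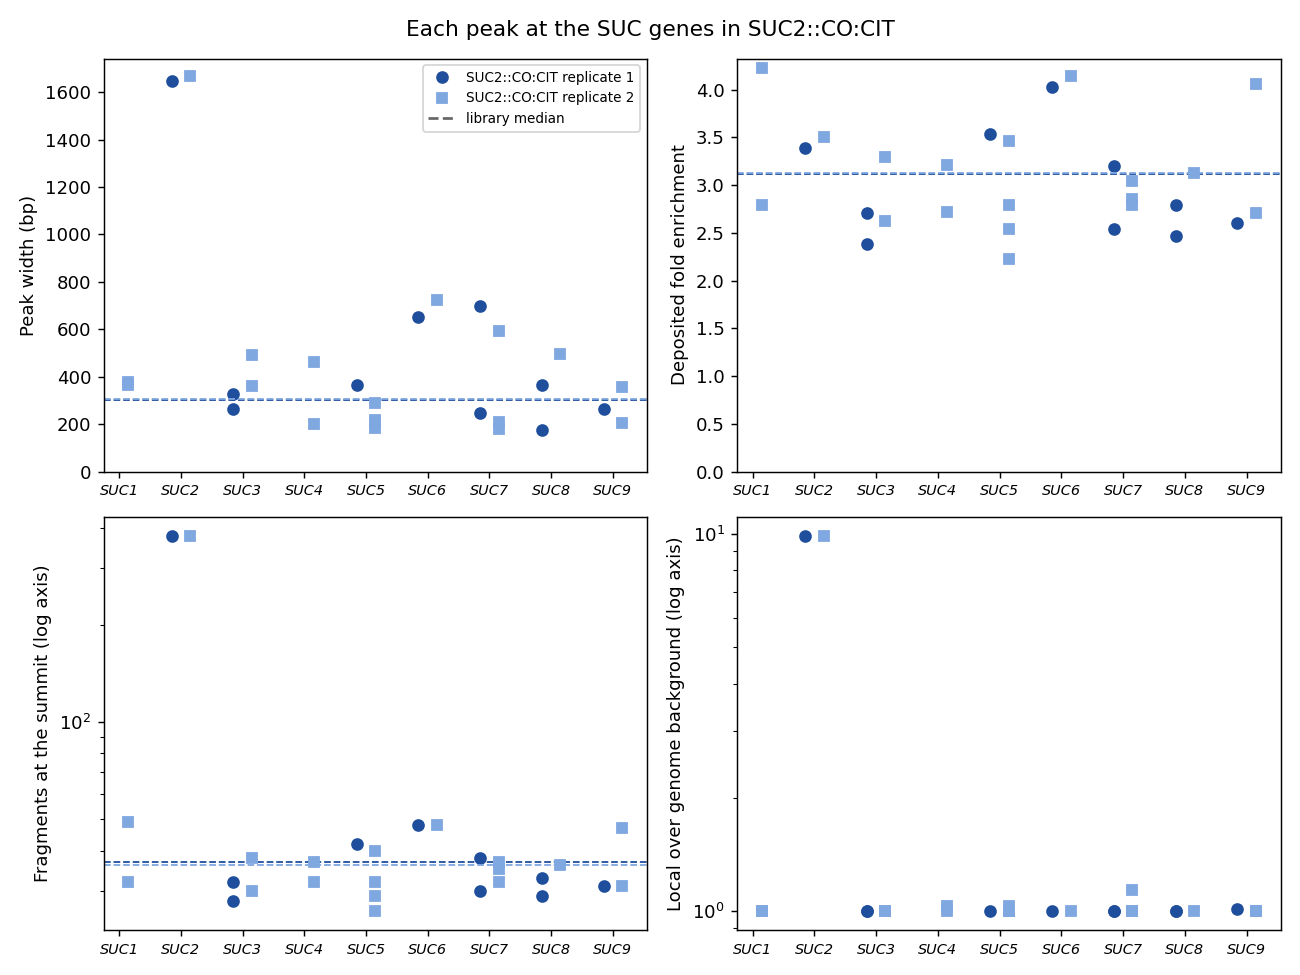
Width (bp), deposited fold enrichment, fragments at the summit (log axis) and local background as a multiple of the genome background (log axis) of each peak at each *SUC* gene in replicates 1 (circles) and 2 (squares) of *SUC2::CO:CIT*. Dashed lines are library medians; *SUC2* lies far above the rest in every panel except the fold enrichment, where values of 2.22 to 4.23 surround it.

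Peaks of the other members also moved more between replicates. There were 8 peaks at 7 members that overlapped between the *SUC2::CO:CIT* replicates. At *SUC2* the shared part was 98.3% of the joint width, whereas at the other shared peaks it was 35.1% (*SUC8*) to 89.8% (*SUC6*). The summits were 6 bp apart at *SUC2* and 19 bp (*SUC8*) to 172 bp (*SUC7*) apart at the other shared peaks. The summit counts behind these positions were 377 and 378 fragments at *SUC2*, against 28 to 48 in replicate 1 and 26 to 49 in replicate 2 at the other members.

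Most summits of the member peaks lay outside the transcribed parts of the genes. In replicate 1, 6 of the 10 member peaks had the summit upstream of the gene, 2 in an intron and 2 beyond the gene end. In replicate 2, 10 of 18 were upstream, 3 in an intron, 1 in an untranslated region and 4 beyond the gene end. None fell in a coding exon in either replicate. The rule itself takes in 3000 bp upstream of each gene, within windows of a median length of 5406 bp. Shares of summit positions over all peaks are not given here, and the paper places most of its filtered *SUC2::CO:CIT* peaks near promoters. These counts are therefore not read as a trait of the *SUC* genes.

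*SUC5* and *SUC3* had, like *SUC2*, a shared peak in the near upstream region. *SUC5* (AT1G71890), a transporter of the seed endosperm, had its summit 263 and 295 bp upstream of the start in replicates 1 and 2, with 42 and 40 fragments and a fold enrichment of 3.53 and 3.46. The GC content there was 17.9% in both replicates, and replicate 2 had 3 further peaks at 772 bp upstream, in an intron and at the gene end. *SUC3* (AT2G02860, named *SUT2* in RefSeq), a member with a long central loop, had its shared summit 562 and 484 bp upstream, close to the distance at *SUC2*, but with 32 and 30 fragments and a fold enrichment of 2.71 and 2.62. A second *SUC3* peak lay 1548 bp upstream in replicate 1 and 1896 bp upstream in replicate 2, and these did not overlap. Both genes thus shared the side with *SUC2* but not the height or the background.

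*SUC8* and *SUC9* are close relatives of *SUC5* and *SUC1*. *SUC8* (AT2G14670) had a shared summit 375 and 394 bp upstream, with a width of 174 bp in replicate 1 and 496 bp in replicate 2, and a further peak 1362 bp upstream in replicate 1 alone. *SUC9* (AT5G06170) had a shared peak in an intron, 1593 and 1649 bp from its start, with 31 fragments in both replicates and a fold enrichment of 2.60 and 2.70. These are among the weaker peaks of the libraries, and the *SUC9* peak of replicate 1 had a −log10 q of 4.90. A second *SUC9* peak in replicate 2, with a fold enrichment of 4.06, overlapped the gene end by 3 bp, while the peak at the same place in replicate 1 began 53 bp past the gene end and was not assigned. Likewise, peaks 75 and 55 bp past the end of *SUC8*, with a fold enrichment of 5.09 and 4.73, fell just outside the rule.

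*SUC6* and *SUC7*, which are regarded as pseudogenes in Col-0, had their widest peaks at the end of the gene. At *SUC6* (AT5G43610) the only peak had its summit 473 and 567 bp past the gene end and overlapped the gene by 13 and 14 bp. It was 651 and 725 bp wide, with 48 fragments in both replicates and a fold enrichment of 4.02 and 4.14. At *SUC7* (AT1G66570) a peak of 697 and 592 bp covered the gene end, and its summit in replicate 1 lay inside the neighbouring *WRKY64*. *SUC7* also had a shared intron peak with its summit 1689 and 1742 bp from the start and a fold enrichment of 3.20 and 3.04. In replicate 2 alone, a *SUC7* peak of 178 bp lay upstream, with its summit 594 bp from the start and a fold enrichment of 2.79.

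*SUC1* and *SUC4* had peaks in replicate 2 only. *SUC1* (AT1G71880), which acts in pollen and roots, lies next to *SUC5*, with 1916 bp between them. One of its peaks had the summit 220 bp inside the gene, in the 5′ untranslated region, with 49 fragments (95% Poisson interval 36.3 to 64.8) and a fold enrichment of 4.23, the highest at any member. Replicate 1 had no peak there although its depth was similar, so this value has no replicate. *SUC4* (AT1G09960, named *SUT4* in RefSeq), a transporter of the vacuolar membrane, had summits 2045 and 1302 bp upstream, with a fold enrichment of 2.72 and 3.21. No peak was counted for both *SUC1* and *SUC5*.

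The sequence at the *SUC2* summits was richer in GC than at most peaks of these libraries, whose medians were 21.9% and 22.4%. The 201 bp around the summits had a GC content of 26.9% and 27.4% in replicates 1 and 2, and 7.87% and 7.37% of all peaks of these libraries had a higher one. The other members had 15.9% to 26.4% in replicate 1 and 16.4% to 29.9% in replicate 2, with a median of 24.4% in both. Over its whole width, the *SUC2* peak of replicate 1 had a GC content of 26.6% and held 16 TGTG or CACA words and 2 CCAAT boxes. In windows of 1647 bp upstream of 27440 genes, the median was 13 TGTG or CACA words and 26.0% held at least 16. At least 2 CCAAT boxes were found in 88.6% of these windows, with a median of 4. These windows had a median GC content of 33.9%, against 26.6% in the *SUC2* peak, and the counts were not adjusted for it. By raw count, the *SUC2* promoter held neither word in unusual number. No TGTG or CACA word lay within the 101 bp around either summit of *SUC2*.

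The other Arabidopsis sequence of the transgene is the coding region of *CO* (AT5G15840). A peak at *CO* was present only in replicate 1 of *SUC2::CO:CIT aba1-6*, at chromosome 5, 5172008 to 5172595. It was 588 bp wide and lay entirely in coding exons (100%), with 74 fragments at the summit (95% Poisson interval 58.1 to 92.9) over a local background of 37.3, which was 10.4 times the genome background of that library. The ratio was close to the 9.90 and 9.88 at *SUC2* in *SUC2::CO:CIT*, although it comes from another library and genotype. In the list with the *CO* peak, peaks on chromosome 3 that start at 13590511 and 13591528 had ratios of 10.6 and 10.2. The stretches of these peaks themselves were not looked up. In *SUC2::CO:CIT* replicate 1, the peak at 13590581 to 13590789, inside the first of them, had 100% of its 50-base stretches elsewhere in the reference. What sets the ratio at *CO* was not tested. The fold enrichment of the *CO* peak, 1.96, was the lowest of the 168 peaks, and its −log10 q was 3.23. None of its 22 stretches of 50 bases occurred elsewhere in the reference. No peak was listed at *CO* in the other 3 libraries, and part of the coding region is also annotated as AT5G15843. The promoter sequence and the coding sequence of the transgene were therefore not listed together in any library.

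The absence of *SUC* peaks in *SUC2::CO:CIT aba1-6* was set against the lower depth of these libraries. Fragments and background of each *SUC2::CO:CIT* peak were multiplied by the ratio of the genome backgrounds, and the −log10 p was computed again, which assumes that summit and background scale alike. Scaled to the depth of *SUC2::CO:CIT aba1-6* replicate 1, the *SUC2* peak had 120 and 125 fragments over 35.3 and 35.3, a −log10 p of 28.8 and 31.0 when taken from replicates 1 and 2 of *SUC2::CO:CIT*, against a lowest value of 3.11 in that list. At the depth of replicate 2 it scaled to 26.1 and 27.0 fragments over 7.66 and 7.65, a −log10 p of 7.36 and 7.37, against a lowest value of 3.23. *SUC2* scaled to a value above the lowest listed one at both depths and was not listed in either *SUC2::CO:CIT aba1-6* replicate. The scaling carries the fold and the background ratio of *SUC2::CO:CIT* over to *SUC2::CO:CIT aba1-6*, and whether they hold there was not tested. At the depth of replicate 1, 4 of 10 and 10 of 18 member peaks passed, *SUC2* included, and at the depth of replicate 2 *SUC2* was the only 1 of 10 and of 18. These are scaled values without counting noise.

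**Figure D4:**
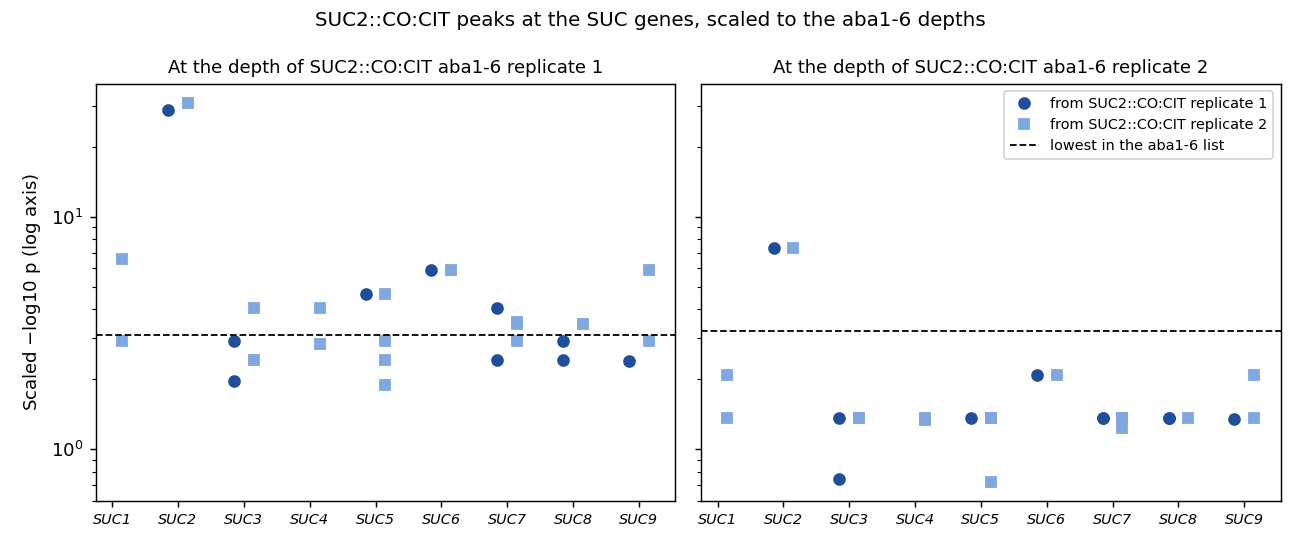
The −log10 p (log axis) of each *SUC2::CO:CIT* peak at the *SUC* genes after scaling to the depth of replicate 1 (left) and replicate 2 (right) of *SUC2::CO:CIT aba1-6*, taken from replicates 1 (circles) and 2 (squares) of *SUC2::CO:CIT*. The dashed line is the lowest −log10 p in the *SUC2::CO:CIT aba1-6* list, 3.11 and 3.23; *SUC2* lies above it in both panels and all other members lie below it on the right.

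Around *SUC2*, the nearest *SUC2::CO:CIT aba1-6* peaks lay 351172 bp downstream in replicate 1 and 27166 bp upstream in replicate 2. Of 25 and 23 peaks with a background more than 2 times the genome background in *SUC2::CO:CIT aba1-6*, 0 lay at *SUC2*, so neither the enrichment nor the high background of this promoter was seen through a peak there. The input and ChIP coverage outside peaks was not analysed here. Whether genotype, depth or library composition accounts for the missing peak cannot be told apart with these lists, because both *SUC2::CO:CIT aba1-6* libraries were shallower than both *SUC2::CO:CIT* libraries.

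Other genes of sugar transport, sucrose cleavage and phloem had peaks at shares of the same order. The SWEET proteins transport sugars, and only some of them release sucrose ahead of uptake by SUC2. Sucrose synthases (SUS) cleave sucrose, and *AHA3*, *AKT2* and *APL* are genes of the phloem. In *SUC2::CO:CIT aba1-6*, 0 of these 26 genes had a peak in either replicate. In both *SUC2::CO:CIT* replicates, 14 of 17 *SWEET* genes, 4 of 6 *SUS* genes and 2 of 3 phloem genes had one, beside the 49.7% of all genes. By the −log10 p of the strongest peak of a gene, averaged over both *SUC2::CO:CIT* replicates, *SWEET4*, *SUS1* and *SUS5* came first. The strongest *SWEET4* peak was 1178 and 952 bp wide with 88 and 72 fragments, its summit lay 1558 and 1567 bp upstream, and its fold enrichment was 7.31 and 6.17. The −log10 p of *SWEET4* was 47.7 and 34.7, of *SUS1* 29.1 and 29.1, and of *SUS5* 19.5 and 23.0. At *SUS5* these are different peaks, 1916 bp upstream in replicate 1, inside AT5G37175, and 576 bp from the start, in an intron, in replicate 2. All these peaks stood on the genome background, and each had a higher fold enrichment but fewer fragments than *SUC2*.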

How the data were processed

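ChIP and input libraries of both genotypes were sequenced, and the 4 deposited peak lists were used as they stand. Reads were trimmed by the authors (fastp) and aligned to TAIR10.1 (Bowtie2), and MACS2 called peaks per ChIP library with input samples as background. At some sites the ratio of local to genome background was the same in both replicates of a genotype. It was 13.9722 at the start of chromosome 2 in both *SUC2::CO:CIT* lists, and 12.265 there in both *SUC2::CO:CIT aba1-6* lists. The background ratios of replicates are therefore not independent measurements. Tool versions are not given in the sources used here. The deposited fold enrichment is a ratio of summit to local background fragments, with a pseudocount of 1. The deposited −log10 p and −log10 q come from MACS2. The deposited score was not used. The other deposited value is the summit offset, from which the authors' summits were placed. For each peak the integer fragment count and background rate were solved from the deposited fold and p-value under a Poisson model. The solving was tested on values simulated with the same formula and pseudocount, which checks the arithmetic and not the model. Depth and its counting error follow from these fragments.

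All 9 *SUC* loci and *CO* were named, with genes beside their peaks, the 3 of the other lists with the highest mean −log10 p and the loci ranked next to *SUC2*. Members and lists were chosen with earlier results of these data known. The depth scaling, the peers by fold enrichment and the look-up of 50-base stretches were devised after the peaks had been seen. Alternatives were other windows, a summit criterion, a −log10 q of at least 5 and single replicates. Python 3.11.15, numpy 2.4.6, pandas 2.3.3, scipy 1.17.1 and matplotlib 3.10.9 were used.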

Additional observations from a re-analysis of the deposited data

How the results depend on the processing

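The number of *SUC* genes with a peak in both *SUC2::CO:CIT aba1-6* replicates was 0 under every alternative, 0 to 0 with single replicates. In *SUC2::CO:CIT* the count of 7 became 3 with the gene body alone (*SUC6*, *SUC7* and *SUC9*; 12.0% of all genes), 7 with 1000 bp upstream (35.7%), 6 with the summit inside the window (46.8%), 6 at a −log10 q of at least 5 (41.6%), and 7 to 9 with single replicates. With the gene body alone *SUC2* was lost, since its peak lay almost wholly upstream. The width of the *SUC2* peak, 4.85 times the median of the other members, was 2.33 times that of the widest of them, 5.38 times the median with 1000 bp upstream, and 4.67 to 5.04 with single replicates. The summit over its background, 3.47, became 34.3 over the genome background, and was 3.41 to 3.53 with single replicates. The local background was 9.88 to 9.90 times the genome background with single replicates, values that are not independent. The summit distance of 505 bp became 691 bp from the start codon and 837 bp for the middle of the peak, and was 502 to 508 bp with single replicates. No paired analysis was possible because these values come from no test. Depth limits all statements on *SUC2::CO:CIT aba1-6*, whose lists held no peak below 11 and 5 fragments at the summit, against 23 and 22 in *SUC2::CO:CIT*.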
